A study of Mus musculus with 6 samples.

Results

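Death receptors and the necroptosis machinery were followed at the RNA level in bone marrow-derived macrophages (BMDMs) that lacked the mitochondrial fission protein DRP1. The 10 genes were taken from a list by name: the death ligand Tnfsf10, the receptors Fas, Tnfrsf1a and Tnfrsf1b, the adaptor Fadd, the protease Casp8, its inhibitor Cflar, the kinases Ripk1 and Ripk3, and the effector Mlkl. They are 10 of 36137 genes in the files, and all 10 were among the 18506 genes with enough reads to test. The list was taken as given, and earlier results of these data were known when it was drawn up.

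Death receptors are members of the TNF receptor family that carry a death domain on the cytoplasmic side. After ligand binding, FADD joins the receptor or RIPK1 and recruits caspase-8, which can start apoptosis, and cFLIP (the product of Cflar) pairs with caspase-8 and holds it back. When caspase-8 is not active, RIPK1 or another adaptor can engage RIPK3, which phosphorylates MLKL, and MLKL then breaks the plasma membrane in the lytic death called necroptosis. These steps are carried out by protein contacts, cleavage and phosphorylation, and mRNA levels do not measure them. Macrophages make many of these proteins, and necroptosis of macrophages is known chiefly from infection and from treatment with caspase inhibitors.

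BMDMs were grown for 7 days and then kept for 8 hours in serum-free medium at 2.1% oxygen per the labels, a treatment called hypoxia serum starvation (HSS) that serves as a culture model of ischemia. WT cells were LysM-Cre+/- Drp1+/+ and Drp1 KO cells were LysM-Cre+/- Drp1 fl/fl, so both groups carried Cre driven by the lysozyme M promoter, which is active in myeloid cells, and both received HSS. The mice of the study were young adults of both sexes. The labels call the 3 libraries of each group biological replicates, while the methods describe marrow pooled from a pair of mice per genotype without saying whether each library is its own pool, so p-values here measure only the spread between these libraries. The main fit was unpaired, and an alternative fit paired libraries of the same number. The study does not state such a pairing. It was adopted from correlations in these data, which do not tell libraries 2 and 3 apart, so values given with paired libraries depend on it. No untreated culture was analysed here, and a change caused by HSS itself cannot be read from these values.

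Each WT library held between 24269850 and 28650715 estimated reads, and each Drp1 KO library between 23389488 and 32231206. Levels are given as CPM, the read count of a gene scaled to a common library size, and 3 reads, taken as the limit for reading a level, corresponded to 0.0917 to 0.136 CPM. The floxed gene, Dnm1l (which encodes DRP1), had 72.6 ± 2.61 CPM (SD, n = 3) in WT and 61.9 ± 3.91 in Drp1 KO, with no overlap between the groups and an adjusted p of 0.248 in edgeR's quasi-likelihood test. A count over the whole gene includes transcripts without the floxed exons, so it is no direct check of the deletion. The 10 macrophage markers examined summed to 15192 to 16918 CPM in WT and 13467 to 15834 in Drp1 KO, and none was at or below 3 reads. Lyz2, named after its value was seen, made up most of that sum. In edgeR's test 4 of the 10 passed, beside 3.36% of all genes (5 with paired libraries, beside 12%), and are named here after their values were seen: Csf1r, Mertk and Mrc1 were lower, with log2 fold changes of -0.52, -0.52 and -0.42, and Fcgr1 was higher, with 1.34. Their part in the results was not tested. Bulk RNA cannot tell fewer cells of a type from less RNA per cell.

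Among the 10 genes, Mlkl and Tnfsf10 had the largest fitted increases. Mlkl RNA, which encodes the pore-forming end of the necroptosis pathway, was 1.39-fold higher in Drp1 KO BMDMs. Its call was lost when any 1 of the libraries numbered 2 or 3 was left out. Tnfsf10 RNA, which encodes the death ligand TRAIL, was 2.69-fold higher on average but from a low level and with unequal libraries. It did not pass the adjusted threshold in the main fit and passed in 5 of 15 other settings. These were paired libraries, DESeq2, no filter beyond 1 count, and leaving out Drp1 KO library 1 or both libraries numbered 1. For the death receptors, Fadd, Casp8, Cflar, Ripk1 and Ripk3 no difference passed. With a threshold of 0.05 on the Benjamini-Hochberg adjusted p of edgeR's quasi-likelihood test, 1 of the 10 genes was called, Mlkl, beside 3.36% of all genes (2.29% of all genes were called as higher). By the study's criteria, a fold change over 1.25 with an unadjusted p under 0.05, 2 of 10 were called, Tnfsf10 and Mlkl, beside 12.7% of all genes. Over only 10 genes, counts this small were not tested against those shares. The median log2 fold change of the 10 genes was 0.09, beside 0.0046 over all genes tested, with 6 higher and 4 lower.

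The sequences just upstream of Mlkl and Tnfsf10, the members with the largest fitted increases, are shown beside that of Zbp1, the necrosome adaptor with the largest fitted increase among the other pathway genes described further on. Each is the 250 bases before the start of the gene's canonical transcript, read 5′ to 3′ on the gene's own strand from the GRCm39 genome. Capitals mark the letters GAAANNGAA or their reverse complement TTCNNTTTC, a pattern found in interferon-stimulated response elements. They lie at chr8:112064869-112065118 (minus strand) for Mlkl, chr3:27370927-27371176 (plus strand) for Tnfsf10 and chr2:173060725-173060974 (minus strand) for Zbp1.
Mlkl: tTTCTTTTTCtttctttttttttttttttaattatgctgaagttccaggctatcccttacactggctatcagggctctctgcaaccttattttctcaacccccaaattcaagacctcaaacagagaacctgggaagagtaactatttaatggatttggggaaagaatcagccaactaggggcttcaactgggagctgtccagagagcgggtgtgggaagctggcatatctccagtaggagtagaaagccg
Tnfsf10: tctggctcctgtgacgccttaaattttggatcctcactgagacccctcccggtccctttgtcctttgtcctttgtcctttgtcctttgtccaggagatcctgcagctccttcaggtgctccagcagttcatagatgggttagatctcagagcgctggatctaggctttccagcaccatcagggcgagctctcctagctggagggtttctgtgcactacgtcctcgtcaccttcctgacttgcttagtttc
Zbp1: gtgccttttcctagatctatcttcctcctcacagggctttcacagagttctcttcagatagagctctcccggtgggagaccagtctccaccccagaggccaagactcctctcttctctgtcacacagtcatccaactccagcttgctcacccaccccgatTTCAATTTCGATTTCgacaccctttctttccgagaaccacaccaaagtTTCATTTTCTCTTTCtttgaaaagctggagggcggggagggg
The Mlkl stretch held 1 match, which begins 249 bases before the start and lies in a run of pyrimidines. The Tnfsf10 stretch held none. The Zbp1 stretch held 4, as 2 overlapping pairs. Other annotated transcripts of Mlkl and of Tnfsf10 begin further upstream and overlap these windows.

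Over all 21770 protein-coding promoters, taken from 250 bases before to 50 bases after the canonical start and searched on both strands, 8.78% held GAAANNGAA. Among the 10 genes it was found in 3: Mlkl, Ripk3 (at +25, downstream of the start) and Tnfrsf1b (at -9). The letters TTCNNNGAA, which occur in gamma-activated sites, were found in 8.81% of all promoters and in those of Cflar, Fas, Tnfrsf1a and Tnfrsf1b. The letters GGNNTTTCC, part of NF-κB sites, were found in 5.78% of all promoters and among the 10 genes only in that of Cflar, where the match begins 76 bases before the start and a TTCNNNGAA match begins 63 bases before it. In Zbp1, 1 of its 2 TTCNNNGAA matches shares letters with a GAAANNGAA match. The promoters of Tnfsf10, Casp8, Fadd and Ripk1 held none of these patterns. A match describes the letters and says nothing of binding.

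Tnfsf10 (ENSMUSG00000039304, GRCm39 chromosome 3, 27371033 to 27396576, plus strand) encodes TRAIL, a ligand that triggers apoptosis through its death receptor. Its level was 1.08, 2.21 and 1.40 CPM in WT libraries 1, 2 and 3, and 1.82, 5.22 and 5.49 CPM in the Drp1 KO libraries. Drp1 KO libraries 2 and 3 were above all WT libraries, and Drp1 KO library 1 was below WT library 2, so the groups overlapped. The log2 fold change was 1.43 (SE 0.408, 95% confidence interval 0.52 to 2.34), with an adjusted p of 0.0974 in edgeR's quasi-likelihood test. With 1 library left out, the adjusted p in edgeR was 0.00831 without Drp1 KO library 1, the library that overlapped WT, and 0.160 to 0.326 without any of the other 5. With all 6 libraries unpaired, the adjusted p was 0.0112 in DESeq2, the tool of the study, and 0.146 in limma-voom. With libraries of the same number paired it was 0.00366 in edgeR, and the fold by number was 1.68, 2.36 and 3.93. These levels rest on 25 to 179 estimated reads per library.

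Fas (ENSMUSG00000024778, chromosome 19, 34268001 to 34305173, plus strand) encodes the receptor of Fas ligand. It had 12.3, 16.0 and 14.2 CPM in WT and 15.1, 13.0 and 10.9 CPM in Drp1 KO, and the groups overlapped. Its log2 fold change was -0.13 (95% confidence interval -0.48 to 0.22, adjusted p = 0.770 in edgeR). Its ligand Fasl had 3 estimated reads in all 6 libraries together and was not tested.

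Both TNF receptors were well above that limit. Tnfrsf1a (ENSMUSG00000030341, chromosome 6, 125325566 to 125339632, plus strand) encodes TNFR1, the TNF receptor with a death domain, and had 113, 87.4 and 99.2 CPM in WT and 122, 105 and 105 in Drp1 KO. Tnfrsf1b (ENSMUSG00000028599, chromosome 4, 144938938 to 144973477, minus strand) encodes TNFR2, which has no death domain, and was the most abundant of the 10 genes, at 634, 580 and 555 CPM in WT and 692, 504 and 572 in Drp1 KO. In each gene the groups overlapped, and library 1 was the highest of its group. The log2 fold change was 0.15 for Tnfrsf1a (95% confidence interval -0.11 to 0.41, adjusted p = 0.614 in edgeR). For Tnfrsf1b the interval was -0.28 to 0.28 around a fold change close to 1 (adjusted p = 0.999 in edgeR). The ratio of Tnfrsf1b to Tnfrsf1a, taken from TPM (a level that is also corrected for transcript length), was 3.39 ± 0.358 in WT and 3.04 ± 0.229 in Drp1 KO (exact permutation test, two-sided p = 0.3, where 0.1 is the smallest p that 3 against 3 libraries allow).

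Fadd (ENSMUSG00000031077, chromosome 7, 144131055 to 144136211, minus strand), the adaptor that links death domains to caspase-8, had 7.03, 6.67 and 6.81 CPM in WT and 5.27, 6.51 and 5.89 in Drp1 KO. Each Drp1 KO library was below each WT library. The log2 fold change was -0.21 (SE 0.151, 95% confidence interval -0.55 to 0.12) and did not pass (adjusted p = 0.560 in edgeR). Groups did not overlap in 3 of the 10 genes, Fadd, Cflar and Mlkl, beside 21.9% of all genes tested.

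Casp8 and its inhibitor were among the more abundant members. Casp8 (ENSMUSG00000026029, chromosome 1, 58834375 to 58886665, plus strand) had 116, 113 and 123 CPM in WT and 114, 123 and 122 in Drp1 KO, and its log2 fold change of 0.03 had a 95% confidence interval of -0.16 to 0.23 (adjusted p = 0.920 in edgeR). Cflar (ENSMUSG00000026031, chromosome 1, 58750321 to 58798047, plus strand) had 238, 214 and 208 CPM in WT and 256, 255 and 250 in Drp1 KO. The Drp1 KO libraries lay close together and above the WT libraries, of which library 1 was the nearest. The log2 fold change of Cflar was 0.21 (SE 0.0913, adjusted p = 0.297 in edgeR's quasi-likelihood test, and 0.0923 with paired libraries), and it did not pass. The ratio of Cflar to Casp8, the inhibitor to the protease it holds back, was 0.731 ± 0.0761 in WT and 0.789 ± 0.0435 in Drp1 KO in TPM, a log2 difference of 0.11 (exact permutation test, two-sided p = 0.4). In libraries 1, 2 and 3 the Cflar to Casp8 ratio was 0.802, 0.741 and 0.650 in WT and 0.839, 0.769 and 0.760 in Drp1 KO. It was thus higher in Drp1 KO for each library number, which the unpaired test did not use. The groups overlapped in this ratio and in that of the TNF receptors, and adjusted over these 2 ratios both p-values were 0.4.

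The kinases of the necrosome differed in level but not detectably between genotypes. Ripk1 (ENSMUSG00000021408, chromosome 13, 34186141 to 34221130, plus strand), which acts in survival signalling as well as in both forms of death, had 164, 146 and 168 CPM in WT and 167, 152 and 151 in Drp1 KO. Ripk3 (ENSMUSG00000022221, chromosome 14, 56022452 to 56026324, minus strand), the kinase that phosphorylates MLKL, had 10.9, 7.46 and 8.14 CPM in WT and 12.2, 8.31 and 10.2 in Drp1 KO. The groups overlapped for each. The log2 fold change was -0.02 for Ripk1 (95% confidence interval -0.23 to 0.19, adjusted p = 0.958 in edgeR). For Ripk3 it was 0.21 (95% confidence interval -0.21 to 0.63, adjusted p = 0.673 in edgeR), so that an increase as large as that of Mlkl lies within the interval.

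Mlkl (ENSMUSG00000012519, chromosome 8, 112036296 to 112065168, minus strand) had 78.0, 72.1 and 68.5 CPM in WT libraries 1, 2 and 3 and 94.7, 103 and 106 CPM in the Drp1 KO libraries. Each Drp1 KO library was above each WT library, and library 1 was the highest of the WT and the lowest of the Drp1 KO group. The log2 fold change was 0.48 (SE 0.0948), a fold of 1.39 with a 95% confidence interval of 1.20 to 1.61, and the adjusted p was 0.0239 in edgeR's quasi-likelihood test. The fold by library number was 1.22, 1.43 and 1.55. Since the groups did not overlap, any pairing of the libraries would give an increase in every pair. The call was lost when any 1 of the libraries numbered 2 or 3 was left out: the adjusted p in edgeR was 0.164 or 0.163 when WT library 2 or 3 was dropped, and 0.101 or 0.0788 when Drp1 KO library 2 or 3 was dropped.

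**Figure D1:**
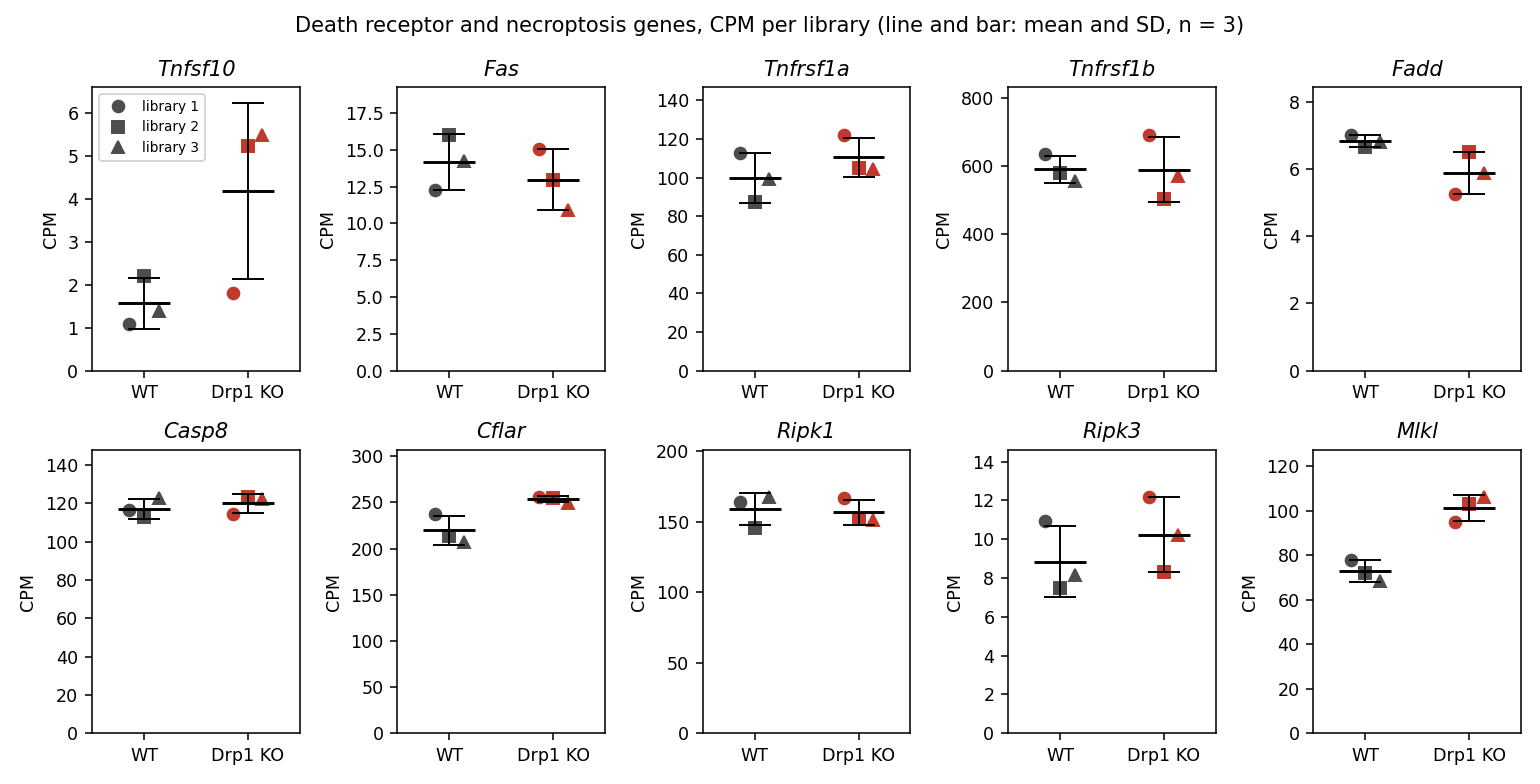
CPM of the 10 genes in each library, in a panel per gene with its own axis from 0, for WT (grey) and Drp1 KO (red). Marker shapes give the library number, and lines and bars give the mean and SD of 3 libraries. Mlkl, Cflar and Fadd separate by genotype, while Drp1 KO library 1 falls among the WT libraries for Tnfsf10.

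With paired libraries, Tnfsf10 and Mlkl were called, 2 of the 10 genes, beside 12% of all genes under that fit. The plot of fitted differences shows how unequal the pairs were: pair 1 gave the smallest increase for Tnfsf10, Mlkl and Cflar, and for Fas it was the only pair in which Drp1 KO was higher.

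**Figure D2:**
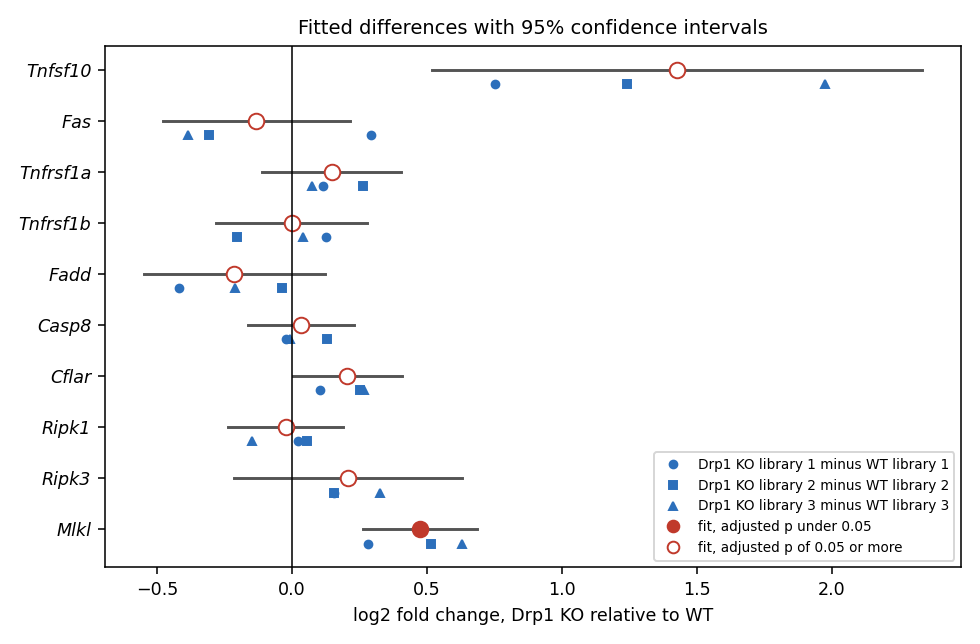
Fitted log2 fold change of Drp1 KO relative to WT for each gene (large circles, filled where the adjusted p was under 0.05) with its 95% confidence interval, and the log2 ratio of CPM between libraries of the same number (small blue markers). The interval of Mlkl runs from 0.27 to 0.69 and that of Tnfsf10 from 0.52 to 2.34, that of Cflar begins just above 0, and those of the other 7 genes span 0.

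The order of the members by level was read in TPM. In WT BMDMs the mean was 203 for Tnfrsf1b, 97.7 for Casp8, 78.9 for Ripk1, 71.0 for Cflar, 62.9 for Mlkl, 60.5 for Tnfrsf1a, 20.9 for Fas, 6.84 for Ripk3, 2.39 for Fadd and 0.544 for Tnfsf10. Among neighbours in this order, Ripk1 and Cflar overlapped across libraries, as did Mlkl and Tnfrsf1a. In Drp1 KO BMDMs Mlkl had 80.3 TPM and came before Cflar at 75.5 (overlapping), Ripk1 at 71.2 and Tnfrsf1a at 63.2. At the low end, Fadd at 1.96 and Tnfsf10 at 1.37 TPM overlapped across Drp1 KO libraries, which they did not in WT. The upstream kinase Ripk3 was thus listed well below its substrate in both groups, at 8.30 TPM in Drp1 KO.

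Estimated transcript shares show which mRNAs these levels stand for. They come from assigning reads to overlapping transcripts, which carries an error of its own that the files used here do not give, so they are described without a test. For Cflar, 85.7% to 89.1% of the estimated count was on Cflar-205, which encodes a protein of 481 residues, and 3.21% to 5.14% on Cflar-204, which encodes a short form of 215 residues. The groups overlapped in both. A further transcript of the long form, Cflar-201, held 1.40% to 3.95% in WT and at most 0.924% in Drp1 KO.

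Mlkl RNA was mainly Mlkl-202 (464 residues), at 76.6% to 90.7%, and most of the rest was Mlkl-201 (472 residues), at 7.39% to 20.5%. WT library 2 had both the lowest Mlkl-202 and the highest Mlkl-201 share, and the groups overlapped in each. Casp8 was spread over Casp8-202 (53.0% to 72.8%), Casp8-201, which encodes the same 480 residues, and Casp8-203 with 500 residues, which held 20.2%, 15.5% and 8.28% in WT and 24.2%, 15.4% and 29.9% in Drp1 KO. For Ripk1, Ripk1-203 held 13.4% to 15.6% in WT and 17.9% to 19.0% in Drp1 KO with no overlap, beside 69.3% to 77.4% on Ripk1-201, and both encode 656 residues. Ripk3-201 (486 residues) held 70.3% to 99.6% of the low Ripk3 count. Tnfsf10, Fas, Tnfrsf1a, Tnfrsf1b and Fadd each had 1 transcript with at least 88.0% of the count in every library.

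**Figure D3:**
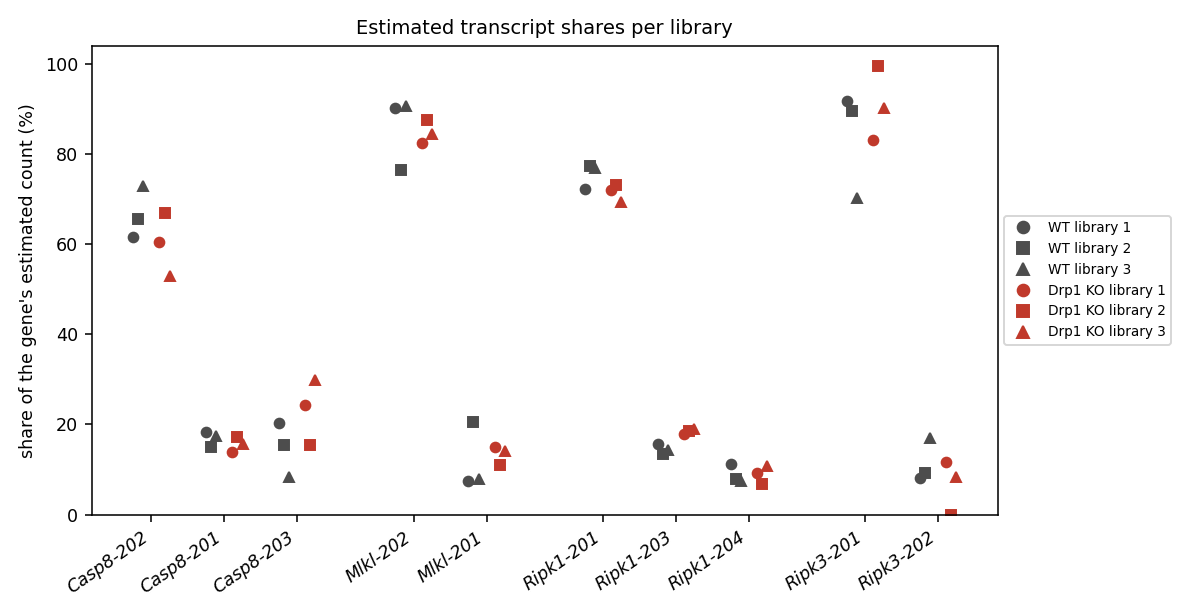
Share of each gene's estimated count on its transcripts (percent, vertical axis), by library. Shown are the genes with more than 1 transcript whose mean share over the WT libraries was over 5%: Casp8, Mlkl, Ripk1 and Ripk3. Grey markers are WT and red markers Drp1 KO, with shapes for library number. Ripk1-203 is the transcript whose WT and Drp1 KO shares do not overlap.

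Other annotated genes overlap some members: Plekhg6 lies on the strand opposite to Tnfrsf1a, Serpinb6a opposite to Ripk1, Faddos opposite to Fadd, and Gm63800 and Gm45712 opposite to Mlkl. The library kit named in the labels keeps strand, but whether strand was used in the quantification is not given in the sources used here. Reads from such overlaps could then have been counted to either gene, and their share was not tested.

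Genes around the members were described from 4 lists. The first holds 9 further death ligands and receptors, of which 6 were tested, with a median log2 fold change of 0.19 beside 0.0046 over all genes. Only Tnfrsf23, which encodes a decoy receptor for TRAIL in mice, passed (1 of 6, beside 3.36% of all genes). It had 14.2, 13.9 and 16.6 CPM in WT and 24.7, 22.2 and 21.3 CPM in Drp1 KO, without overlap, and a log2 fold change of 0.61 (SE 0.121, adjusted p = 0.0242 in edgeR). The signalling TRAIL receptor of the mouse, Tnfrsf10b, named here after its value was seen, had 3.35 ± 0.575 and 4.39 ± 0.504 CPM (log2 fold change 0.40, adjusted p = 0.364 in edgeR). Tnf itself had 10.9 ± 1.92 CPM in WT and 12.0 ± 0.613 in Drp1 KO (log2 fold change 0.14, adjusted p = 0.749 in edgeR), and Tnfrsf21 (death receptor 6) had 78.4 ± 9.13 and 86.2 ± 5.71. Fasl, Tnfrsf11b and Tnfrsf25 had 3 or fewer estimated reads over all libraries and were not tested.

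The second list holds 21 genes of the TNF receptor complex and of the ubiquitin and kinase checkpoint that keeps RIPK1 in its survival role. In edgeR's test 0 of 21 passed, 2 had an unadjusted p under 0.05 (beside 16.4% of all genes), and DESeq2 and limma-voom also called 0. The median log2 fold change was 0.01, with 11 higher and 10 lower. With paired libraries 2 of 21 passed, near the 12% of all genes called under that fit: Birc2 (cIAP1, a ubiquitin ligase for RIPK1) as higher, with an adjusted p of 0.0494 in edgeR, and Mapkapk2 (the kinase MK2, which phosphorylates RIPK1) as lower, with 0.0454. Both are named after their values were seen. Tnip1 and Tab2, the most abundant of the list, had log2 fold changes of 0.08 and 0.05.

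The third list holds 12 adaptors and regulators of the necrosome, and 4 of 12 rose in edgeR's test (beside 2.29% of all genes called as higher) while 0 fell. The list was chosen with earlier results of these data known, so this count is a description. A list of interferon-induced genes, given further on, rose more widely, with 11 of 12 called as higher. DESeq2 and limma-voom each called 6, the same 4 as higher and, as lower, Hsp90ab1 and Cdc37. The share of all genes called by those fits was not taken, so these counts have no such share beside them. Zbp1, the sensor of Z-form nucleic acids that can engage RIPK3 without RIPK1, had 18.3, 11.8 and 9.23 CPM in WT and 46.1, 74.6 and 63.7 in Drp1 KO, a log2 fold change of 2.24 (SE 0.246, adjusted p = 0.00100 in edgeR). Rigi, a sensor of viral RNA, went from 57.1 ± 8.59 to 156 ± 27.3 CPM (log2 fold change 1.46, adjusted p = 0.000711 in edgeR). Tlr3, the endosomal receptor for double-stranded RNA that signals to RIPK3 through TRIF, went from 8.06 ± 1.28 to 16.7 ± 4.48 CPM (log2 fold change 1.05, adjusted p = 0.0211 in edgeR). The Tlr3 call was lost in 5 of 15 other settings. Adar, the RNA editor that limits the nucleic acids ZBP1 senses, went from 62.9 ± 7.90 to 109 ± 8.53 CPM (log2 fold change 0.79, adjusted p = 0.00475 in edgeR).

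The genes of that list that rose thus include activators (Zbp1, Tlr3) and a gene that limits activation (Adar), and the median over its 12 genes was 0.03. Ticam1, which encodes TRIF and is named after its values were seen, had 29.0 ± 4.70 and 29.3 ± 6.38 CPM, and Tlr4 had 98.3 ± 8.37 and 102 ± 3.26. With paired libraries 7 of 12 passed, beside 12% of all genes: the same 4 and, as lower in Drp1 KO, Hsp90ab1, Cdc37 and Stub1. HSP90 and its co-chaperone CDC37 keep RIPK3 and MLKL folded, and the ubiquitin ligase encoded by Stub1 lowers RIPK3 protein. Hsp90ab1 had a log2 fold change of -0.49 (adjusted p = 0.0603 in edgeR without pairing, and 0.00149 with it). Cdc37 and Stub1, named after their values were seen, had -0.52 and -0.38.

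The fourth list holds 12 genes of apoptosis downstream of caspase-8. In edgeR's test 0 of 12 passed and 3 had an unadjusted p under 0.05 (beside 16.4% of all genes). DESeq2 called 1 and limma-voom 0, without a share of all genes taken for those fits. The median log2 fold change was 0.07, with 8 higher and 4 lower. With paired libraries 3 passed, beside 12% of all genes, 2 as higher and 1 as lower. The lower one, named after its values were seen, was Diablo, which encodes an antagonist of inhibitors of apoptosis. It had 27.2 ± 1.08 CPM in WT and 21.9 ± 1.31 in Drp1 KO, with a log2 fold change of -0.32 (adjusted p = 0.145 in edgeR without pairing, and 0.0345 with it). Xiap and Apaf1, the most abundant of those that did not pass, had log2 fold changes of 0.09 and 0.01.

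**Figure D4:**
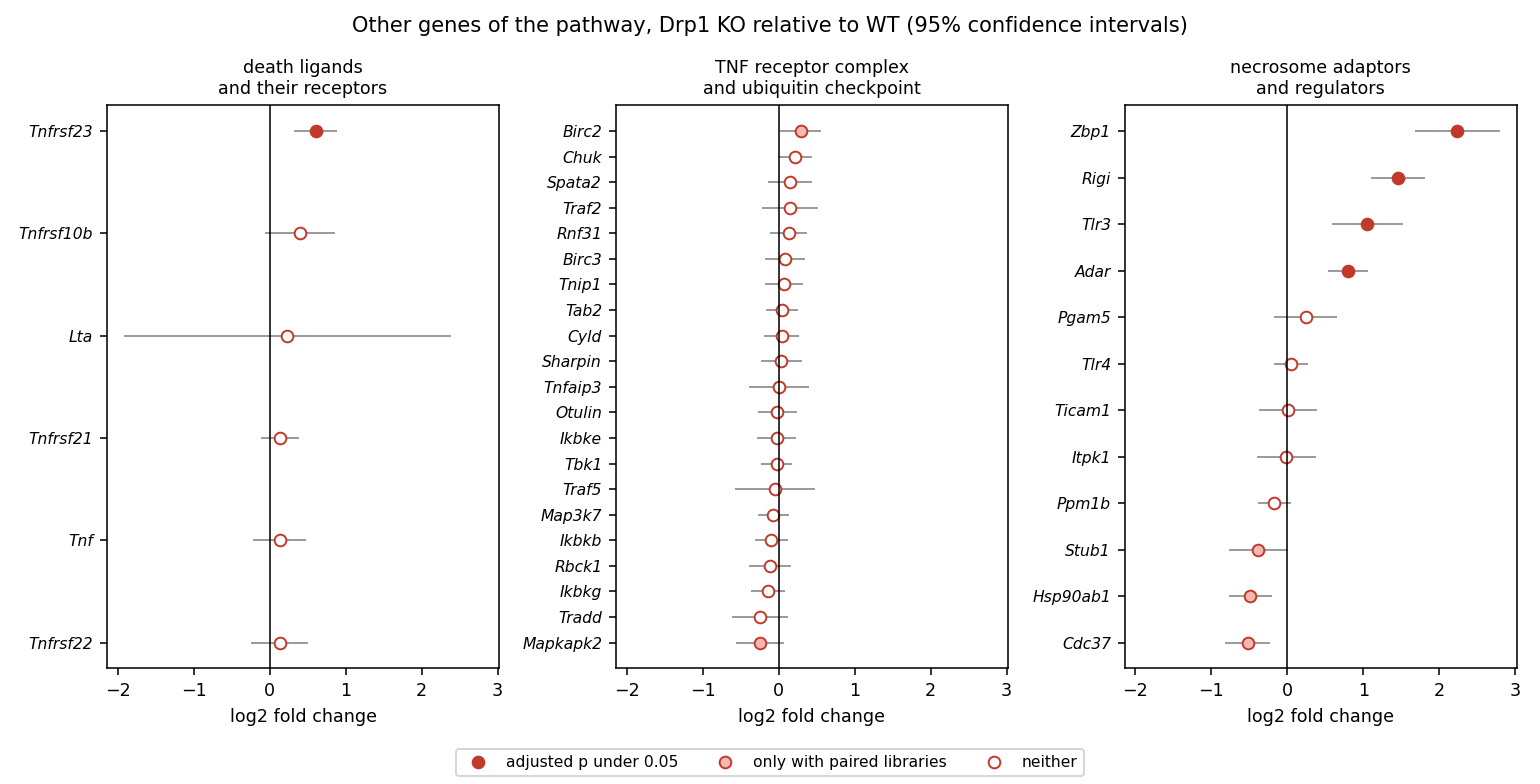
Log2 fold change of Drp1 KO relative to WT with 95% confidence intervals for the 39 tested genes of the first 3 lists, a panel per list. Filled red circles had an adjusted p under 0.05, pale circles passed only with paired libraries, and open circles passed in neither. Zbp1, Rigi, Tlr3 and Adar stand to the right of the other necrosome regulators.

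The genes whose log2 CPM followed Mlkl most closely over the 6 libraries, among 12247 genes averaging 1 CPM or more, were Oas2 (Pearson r = 0.999), Rnf141 (0.999), Necap1 (0.999), Adar (0.998) and Ifi44 (0.998). With so few libraries, 41 genes exceeded 0.99, and a shared difference between the groups raises every such r. Oas2 and Ifi44 are induced by interferon and had log2 fold changes of 1.91 and 2.82, against 0.35 for Rnf141 and 0.27 for Necap1.

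A list of 12 interferon-induced genes moved with these results. In edgeR's test 11 of 12 rose, beside 2.29% of all genes, with a median log2 fold change of 2.13. Their summed level was 556 to 830 CPM in WT and 2325 to 3411 CPM in Drp1 KO (2325, 3331 and 3411 CPM in Drp1 KO libraries 1, 2 and 3). Drp1 KO library 1 thus had the lowest sum of its group, and there Tnfsf10, Mlkl and Zbp1 were also at their lowest among the Drp1 KO libraries. In WT the sum was 830, 815 and 556 CPM in libraries 1, 2 and 3. Mlkl (78.0, 72.1 and 68.5 CPM) and Zbp1 (18.3, 11.8 and 9.23 CPM) ran in the same order there. Tnfsf10 did not, since it was lowest in WT library 1, which had the highest sum. The part of the interferon response in the levels of Mlkl and Tnfsf10 was not tested. Neutrophil markers summed to 7.50 to 22.2 CPM in WT and 21.3 to 49.4 CPM in Drp1 KO, with 0 of 7 tested passing in edgeR (4 had an unadjusted p under 0.05, beside 16.4% of all genes) and Ly6g at 0 in every library. With paired libraries 4 of 7 passed, all as higher in Drp1 KO, beside 12% of all genes, and the sum was higher in 3 of 3 pairs: it went from 7.50 to 21.3, from 19.9 to 49.4 and from 22.2 to 47.6 CPM. Their part in the higher Mlkl and Tnfsf10 was not tested. The sums for B cell, dendritic cell and fibroblast markers overlapped between groups, at 18.7 to 32.7 against 25.2 to 56.0, 4.79 to 7.31 against 2.77 to 5.80 and 1.84 to 3.06 against 1.89 to 2.00 CPM, with Cd209a at 0. The list of T and NK cell markers was carried by Cd4 (named after its values were seen), at 312 CPM in WT and 167 in Drp1 KO (adjusted p = 0.0595 in edgeR, and 0.00228 with paired libraries), and 5 of its 10 genes (Trac, Ncr1, Klrb1c, Nkg7 and Prf1) had at most 3 counts in any library.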

How the data were processed

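The data are 6 paired-end libraries of poly(A) RNA from HSS-treated BMDMs, 3 from WT and 3 from Drp1 KO cells. The authors quantified the reads with kallisto against Ensembl cDNA sequences of GRCm39 (the submitters' processing notes name kallisto 0.46.1 and DESeq2 1.44.0), and deposited 1 table per library with the estimated count of each transcript, with no scaling between libraries. TPM values, scaled by the authors for length and depth and deposited beside the counts, were used for the order of levels, for ratios between genes and for the length-scaled alternative.

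Transcript identifiers were looked up in GENCODE's GRCm39 annotation (116159 of 116873 found, 99.4%), and the estimated counts of a gene's transcripts were summed and then rounded. Unmatched transcripts held 0.542% to 0.575% of each library and were left out. The gene listed as Ddx58 was matched as Rigi. The members and all lists were chosen with earlier results of these data known.

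Genes with at least 10 counts in total were fitted in edgeR 4.0.16 (R 4.3.3) after TMM scaling, and Drp1 KO was tested against WT by quasi-likelihood without a covariate, adjusted by Benjamini-Hochberg over all genes tested. The test was tried first on simulated data. A standard error is the ratio of the log2 fold change to the root of its F statistic. Alternatives used DESeq2 1.42.0, limma-voom (limma 3.58.1), other size factors and filters, length-scaled counts, each library left out, and the replicate number as a block. One alternative, leaving out both libraries numbered 1, was added after seeing the data. Beside the 10 members, the text names the genes of the 4 pathway lists that passed and the 2 most abundant others per list, the 5 genes most correlated with Mlkl (log2 CPM with a prior count of 2), and some genes said to be named after their values were seen. Some genes of these lists are not reported here by name.

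The labels number the libraries 1 to 3 in each group. Deviations from the group means correlated at 0.510, 0.204 and 0.298 between libraries of the same number, over 12248 genes averaging 1 CPM or more. Pairs with different numbers ran from -0.443 to 0.326, the highest between WT library 2 and Drp1 KO library 3, so libraries 2 and 3 are not told apart by this check. All 3 same-number values exceed 0.1, and on that basis an alternative fit treated libraries as paired by number. The study does not state this pairing, and this check does not establish it. Intervals have a confidence level of 95%, and the limit of 3 reads covers counting error only. Promoters were read from the GRCm39 genome.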

Additional observations from a re-analysis of the deposited data

How the results depend on the processing

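Directions held for Tnfsf10, Mlkl, Cflar, Fas, Fadd, Ripk3 and Tnfrsf1a under all 15 other settings. Tnfsf10 had log2 fold changes from 1.19 to 1.76 and passed in 5 of 15 (adjusted p from 0.00366 to 0.326), and Mlkl from 0.42 to 0.57 and passed in 10 of 15 (0.00168 to 0.164), whereas Cflar passed in 0 (0.0559 to 0.689). Among the other pathway genes, Zbp1 and Rigi passed in 15, Adar in 14, Tnfrsf23 in 11 and Tlr3 in 10. For 3 members with fold changes close to 1 the direction reversed: with a library left out, Casp8 ran from -0.011 to 0.057, Ripk1 from -0.098 to 0.0056 and Tnfrsf1b from -0.14 to 0.10, and Tnfrsf1b had 0.010 with length-scaled counts. The cause was not tested.

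The share of all genes called was taken only for the main fit and for the fit with the replicate block. Counts under the other settings therefore have no such share beside them. Of the 10 members, 2 passed with the replicate block, with DESeq2, with no filter beyond 1 count and without both libraries numbered 1, and 0 with length-scaled counts (Mlkl adjusted p = 0.0703). With a library left out, 0 to 2 passed: 0 when library 2 or 3 of either group was dropped, and 2 when library 1 of the Drp1 KO group was dropped. By the study's criteria 2 passed in every setting except without both libraries numbered 1, where Fas, as lower, made 3. For further death ligands and receptors 0 passed with length-scaled counts, and 0 to 1 with a library left out. For the TNF receptor complex 2 passed with the replicate block and 1 without both libraries numbered 1. For the necrosome list 7 passed with the replicate block, 6 with DESeq2, limma-voom, library size only or no filter beyond 1 count (5 with length-scaled counts or edgeR's filterByExpr), 8 without both libraries numbered 1 and 2 to 6 with a library left out, the lowest without WT library 2. For the apoptosis list 3 passed with the replicate block, 1 with DESeq2, 2 without both libraries numbered 1 and 0 to 1 with a library left out. The block on paired libraries changed no other call among the 10 members and the named genes of the 4 pathway lists than those given beside the results.

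Depth limits Tnfsf10 and Fadd most among the members, and transcript shares of Ripk3 rest on few reads. Protein levels and phosphorylation were not measured in these libraries.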
